A study of Mus musculus with 12 samples.

Results

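The IL-6 family ligands are secreted cytokines, most of which signal through the shared receptor chain gp130, encoded by Il6st. The 6 genes described here, Il6, Lif, Il11, Clcf1, Ctf1 and Osm, were taken by symbol from the 22915 genes of the deposited table. The data come from RNA of primary cardiomyocytes of adult male C57/Bl6 mice, 12 weeks of age, that were cultured in normoxia and exposed for 24 h to 1 of 4 additions. These were PBS as vehicle control, murine LIF (mLIF), murine OSM (mOSM) or human-like OSM (hlOSM), the recombinant proteins at 25 ng/mL by the sample labels, whereas the study's methods give a lower concentration. Each condition had 3 libraries, 12 in all. In mouse cells, mLIF signals through the LIF receptor and mOSM through the OSM receptor, while hlOSM, which is murine OSM carrying the AB loop of the human protein, signals through both. All libraries, controls included, came from isolated and cultured cells, and neither labels nor methods tie a replicate number to an animal or preparation, so the p-values measure the spread between these libraries, which may be technical. Within conditions the replicate number held 1.70% of the variance, below the 25% of values without such an effect, as would values from which a replicate effect had been taken out. The sources used here do not say that this was done. The p-values without a block would then be too small, and those with a replicate block are given wherever they change a call.

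Each ligand described here binds a receptor complex that contains gp130, alone or paired with LIFR or OSMR. The complex activates Janus kinases and the transcription factor STAT3. IL-6 and IL-11 first bind a private alpha receptor and then bring a pair of gp130 chains together, LIF and cardiotrophin-1 (Ctf1) join gp130 to LIFR, cardiotrophin-like cytokine factor 1 (Clcf1) acts with the CNTF receptor, and OSM in the mouse joins gp130 to OSMR. In the heart, members of the family are known for cardiomyocyte growth and survival signals and for the acute-phase response to injury, and cardiotrophin-1 was named after its effect on cardiomyocyte size. Their mRNAs are typically short-lived, and several carry AUUUA repeats in the 3′ untranslated region that are bound by decay proteins such as tristetraprolin (Zfp36).

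At 24 h, Il6, Clcf1, Il11 and Lif transcripts were higher in cardiomyocytes exposed to mOSM or hlOSM than in PBS controls, with Il6 showing the largest difference of the 5 members that could be tested. Il6 was 8.68-fold higher with mOSM and 7.65-fold higher with hlOSM, Clcf1 2.39-fold and 2.75-fold, and Il11 2.54-fold and 1.91-fold, as ratios of the means of 3 libraries. Lif had a mean of 79.0 ± 12.1 normalized counts with PBS (SD, n = 3), 126 ± 6.43 with mOSM and 114 ± 16.1 with hlOSM. Ctf1 was the member that was lower, at 0.614 times its PBS level with mOSM, a difference close to the threshold. With mLIF no member passed the test, and between hlOSM and mOSM no member passed it either. Osm itself was at 0 or 1 normalized count in every library. These are bulk samples, in which fewer cells of a type and less RNA per cell cannot be told apart, and the summed cardiomyocyte markers were lower in every library with a cytokine than in the PBS libraries. Most of that sum was Ttn, the titin gene.

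Sequences of the regions that lie before and at the end of these genes are shown first. They are among the parts of a locus through which cytokine mRNA levels are known to be set. RefSeq windows on GRCm38.p6, which has the coordinates of mm10, were found for 4 of the members, and Clcf1 and Osm are named only. Each window holds the 250 bases before the annotated start, written 5′ to 3′ on the strand of the gene. Capitals mark matches to the motifs searched on both strands, which were AP-1 (TGANTCA), NF-kB (GGNNTTTCC), C/EBP (TTNNGNAA), CRE (TGACGTCA) and STAT (TTCNNNGAA). The windows lie at chr5:30012864-30013113 (Il6, plus strand), chr11:4257318-4257567 (Lif, plus strand), chr7:4778142-4778391 (Il11, minus strand) and chr7:127712453-127712702 (Ctf1, plus strand).
Il6: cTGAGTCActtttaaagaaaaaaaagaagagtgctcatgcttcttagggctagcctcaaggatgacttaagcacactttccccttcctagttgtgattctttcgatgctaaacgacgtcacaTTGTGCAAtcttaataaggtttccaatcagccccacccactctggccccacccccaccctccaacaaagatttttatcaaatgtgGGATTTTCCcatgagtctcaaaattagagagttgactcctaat
Lif: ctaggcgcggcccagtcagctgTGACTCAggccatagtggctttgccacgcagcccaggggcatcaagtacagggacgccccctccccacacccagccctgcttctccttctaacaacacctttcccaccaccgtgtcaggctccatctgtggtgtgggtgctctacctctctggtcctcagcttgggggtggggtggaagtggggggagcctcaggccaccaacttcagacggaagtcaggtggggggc
Il11: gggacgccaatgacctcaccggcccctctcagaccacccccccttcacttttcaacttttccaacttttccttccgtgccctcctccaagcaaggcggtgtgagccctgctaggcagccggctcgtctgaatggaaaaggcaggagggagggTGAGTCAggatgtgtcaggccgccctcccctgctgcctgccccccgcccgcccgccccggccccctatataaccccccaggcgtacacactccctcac
Ctf1: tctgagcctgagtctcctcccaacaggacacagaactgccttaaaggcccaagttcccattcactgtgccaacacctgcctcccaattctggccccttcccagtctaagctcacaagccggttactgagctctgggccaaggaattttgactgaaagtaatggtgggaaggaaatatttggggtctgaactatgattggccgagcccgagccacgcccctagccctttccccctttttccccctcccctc

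The Il6 window held an AP-1 match whose first base lay 249 bases before the start, a C/EBP match at 128 bases and an NF-kB match at 43 bases. The Lif window held an AP-1 match at 228 bases, and the Il11 window shown held one at 98 bases. No match overlapped another. The Il11 window shown is that of the annotated start with a match, the other annotated start had a window at chr7:4782858-4783107 with none, and the Ctf1 window held none either. No window of a member held a CRE or STAT match. Among 32851 windows of the same length, 6.75% held an AP-1 match, 4.93% an NF-kB match, 36.8% a C/EBP match, 1.55% a CRE match and 7.02% a STAT match. These matches describe the letters of the windows only.

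The AUUUA pentamers of the 3′ untranslated regions were counted in the GENCODE M21 transcript with the longest coding sequence. The stretch of 30 bases richest in them is shown for the 4 members that were higher with mOSM and for Osm, with each pentamer in capitals.
Il6: auuuuuaAUUUAuugauaAUUUAaauaagu
Lif: AUUUAuucaaugucauAUUUAaaauAUUUA
Il11: ccagaucuuAUUUAUUUAUUUAuuuuggua
Clcf1: auAUUUAUUUAuuuggagauguuAUUUAuu
Osm: uuuuauAUUUAuaaggccuAUUUAuaaugu

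The region of Il6 held 6 pentamers in 427 bases, and 0.655% of regions of like length held at least as many. Il11 held 10 in 1194 bases, a number reached by 1.08% of regions of like length, and Osm held 6 in 1017 bases, reached by 6.25%. For Clcf1, 4 pentamers in 922 bases were reached by 18.2%, and for Lif, 7 in 3180 bases were reached by 38.8%. Ctf1 had 0 pentamers in 721 bases.

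Il6 encodes interleukin-6, the inducer of the hepatic acute-phase response (ENSMUSG00000025746, mm10, chromosome 5, 30013114 to 30019981, plus strand). The normalized counts are the authors' read counts per gene after a normalization that the sources used here do not name. For Il6 they were 8, 15 and 11 in the PBS libraries, replicates 1 to 3, and 11, 16 and 11 with mLIF. In the mOSM libraries they were 111, 76 and 108, and in the hlOSM libraries 110, 58 and 92. Every library with mOSM or hlOSM lay above every library with PBS or mLIF, and the lowest of them (58) came from hlOSM replicate 2. On the log2(normalized count + 1) scale, on which all differences below are given, Il6 rose by 3.03 ± 0.23 (SE) with mOSM (adjusted p = 1.72e-09) and by 2.82 ± 0.23 with hlOSM (adjusted p = 3.13e-09). Of the 13184 genes tested, 29 had a larger difference than Il6 with mOSM and 44 with hlOSM. With mLIF the difference was 0.17, with a 95% interval from −0.32 to 0.65 (adjusted p = 0.695), so that libraries of this number do not separate a small rise from none. Il6 was higher with mOSM than with mLIF by 2.86 (adjusted p = 1.08e-08) and higher with hlOSM than with mLIF by 2.65 (adjusted p = 2.54e-08).

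Clcf1 encodes a ligand of the CNTF receptor complex (ENSMUSG00000040663, chromosome 19, 4214238 to 4223490, plus strand). Its normalized counts were 49, 50 and 43 with PBS and 52, 54 and 59 with mLIF. The mOSM libraries had 116, 119 and 104, and the hlOSM libraries 124, 111 and 155. The libraries with mLIF lay just above those with PBS, and all libraries with mOSM or hlOSM lay above both. Clcf1 rose by 1.24 ± 0.12 with mOSM (adjusted p = 4.66e-08) and by 1.43 ± 0.12 with hlOSM (adjusted p = 3.81e-09), and the difference with mLIF, 0.21 with an interval from −0.03 to 0.46, did not pass the test (adjusted p = 0.270). It was higher than with mLIF by 1.03 with mOSM (adjusted p = 2.34e-06) and by 1.21 with hlOSM (adjusted p = 1.43e-07). Of the exonic bases of Clcf1, 8.17% overlap the gene model AC109138.7 on the same strand, where reads could not be assigned to a single gene.

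Il11 encodes interleukin-11, a ligand known for its role in fibroblast activation (ENSMUSG00000004371, chromosome 7, 4772373 to 4782859, minus strand). Its normalized counts were 8, 11 and 16 with PBS and 8, 8 and 7 with mLIF, against 37, 24 and 28 in the mOSM libraries and 23, 24 and 20 in the hlOSM libraries. Every library with mOSM or hlOSM lay above every other library, whereas mLIF and PBS shared values. Il11 rose by 1.30 ± 0.25 with mOSM (adjusted p = 0.000278) and by 0.93 ± 0.25 with hlOSM (adjusted p = 0.00478). The difference with mLIF was −0.50, with an interval from −1.01 to 0.01 (adjusted p = 0.203), and Il11 was higher than with mLIF by 1.80 with mOSM (adjusted p = 1.78e-05) and by 1.43 with hlOSM (adjusted p = 0.000224). Il11 passed the filter on low values, which asks for 10 or more normalized counts in 3 or more libraries, only through the conditions in which it was high, since 2 PBS libraries and 0 mLIF libraries reached 10. Without any filter its differences with mOSM and hlOSM against PBS remained past the threshold (adjusted p = 0.000722 and 0.0104).

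Lif encodes the cytokine that was itself 1 of the additions (ENSMUSG00000034394, chromosome 11, 4257557 to 4272514, plus strand). Its transcript had normalized counts of 77, 68 and 92 with PBS and 61, 72 and 70 with mLIF. The mOSM libraries had 119, 131 and 129, and the hlOSM libraries 131, 112 and 99. The libraries with PBS and mLIF overlapped, and those with mOSM and hlOSM lay above both. Lif rose by 0.68 ± 0.12 with mOSM (adjusted p = 0.000118) and by 0.53 ± 0.12 with hlOSM (adjusted p = 0.00129). With mLIF the difference was −0.21, with an interval from −0.46 to 0.03 (adjusted p = 0.266). Against mLIF, Lif was higher by 0.89 with mOSM (adjusted p = 1.29e-05) and by 0.74 with hlOSM (adjusted p = 0.000105).

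Ctf1 encodes cardiotrophin-1 (ENSMUSG00000042340, chromosome 7, 127712736 to 127718192, plus strand). Its normalized counts were low, at 18, 18 and 21 with PBS and 17, 14 and 18 with mLIF. In the mOSM libraries they were 12, 11 and 12, and in the hlOSM libraries 12, 16 and 11. All libraries with mOSM or hlOSM lay below those with PBS, and the ranges of hlOSM and mLIF overlapped. Ctf1 fell by 0.66 on the log2 scale with mOSM, with an SE of 0.22 (adjusted p = 0.0275). The difference with hlOSM, −0.53 with an interval from −0.99 to −0.07, did not pass the test (adjusted p = 0.0658), nor did that with mLIF, −0.21 with an interval from −0.67 to 0.25 (adjusted p = 0.590). The difference with mOSM lost its call when PBS replicate 1 or 3 or mOSM replicate 1 or 2 was left out (adjusted p = 0.0504 to 0.10), without the filter (0.0561) and when replicate number was fitted as a block (0.087). The difference with hlOSM gained a call without hlOSM replicate 2 (adjusted p = 0.0398). Of the exonic bases of Ctf1, 4.77% overlap Ctf2 on the opposite strand, and the strand setting of the read counting is not given in the sources used here.

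Osm, a ligand made mainly by activated leukocytes, had normalized counts of 0, 0 and 0 with PBS and 1, 1 and 0 with mLIF (ENSMUSG00000058755, chromosome 11, 4236420 to 4241026, plus strand). The mOSM libraries held 0, 0 and 0 and the hlOSM libraries 0, 1 and 0. It reached 10 in 0 of the 12 libraries and was not tested. Osm is the neighbour of Lif, with 16.5 kb and 0 annotated genes between them on the same strand.

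**Figure D1:**
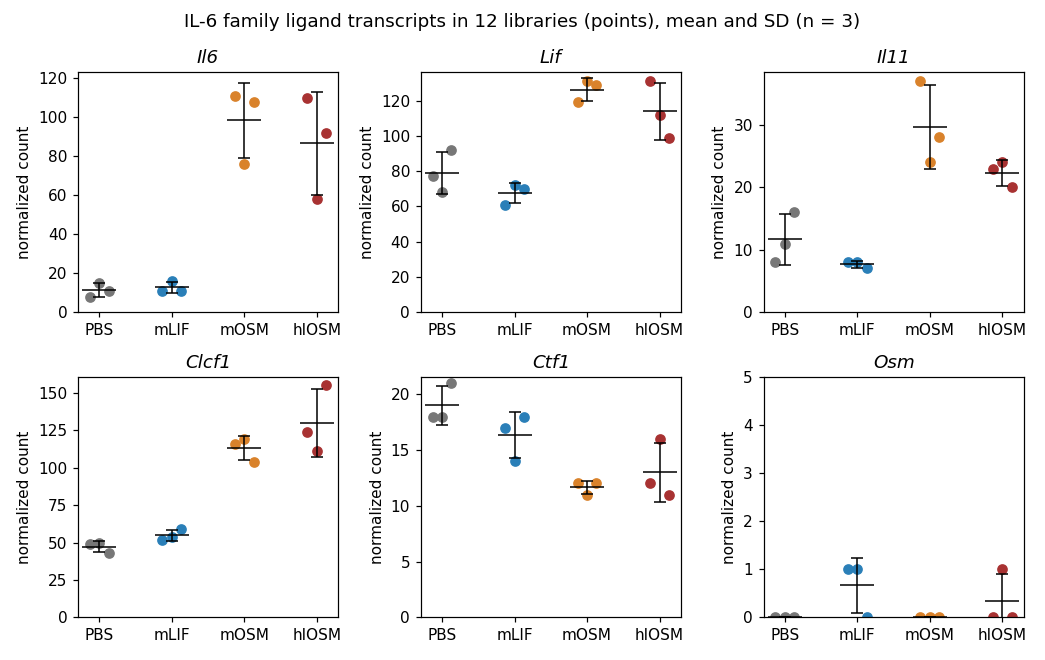
Normalized counts (linear axes that start at 0) of Il6, Lif, Il11, Clcf1, Ctf1 and Osm in each of the 12 libraries, shown as points by condition, with bars for the mean and SD of 3 libraries. For Il6, Lif, Il11 and Clcf1 all points of mOSM and hlOSM lie above those of PBS and mLIF, for Ctf1 those of mOSM and hlOSM lie below PBS, and Osm does not exceed 1.

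A single value per library also allowed an exact permutation test that uses no other gene. The ratio of the variance between to that within the 4 conditions was compared with all 15400 arrangements of the 12 libraries, one-sided, for each of the 6 members. The exact permutation p was 0.00429 for Il6, 0.00156 for Lif, 0.00039 for Il11, 0.000519 for Clcf1, 0.00883 for Ctf1 and 0.509 for Osm, unadjusted for the 6 tests. The test asks whether the conditions differ at all and gives no direction.

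Read against all tested genes, 4 members were past the threshold upwards with mOSM, where 15.4% of the 13184 genes were, and the same 4 with hlOSM, where 18.2% were. Downwards, 1 member was past it with mOSM and 0 with hlOSM, against 15.8% and 19.8% of all genes. Against mLIF, 4 members were past it upwards with mOSM (6.05% of all genes) and 4 with hlOSM (7.42%). The comparisons share libraries, and each of the 4 counts includes Il11, which the filter admitted through the libraries in which it was high. With mLIF against PBS, limma called 0 members, and 0 had an unadjusted p under 0.05, while 9.91% of all genes were called in either direction and 5.47% upwards. The median difference over all tested genes was within 0.01 of 0 in every comparison, from −0.00675 to 0.00037.

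**Figure D2:**
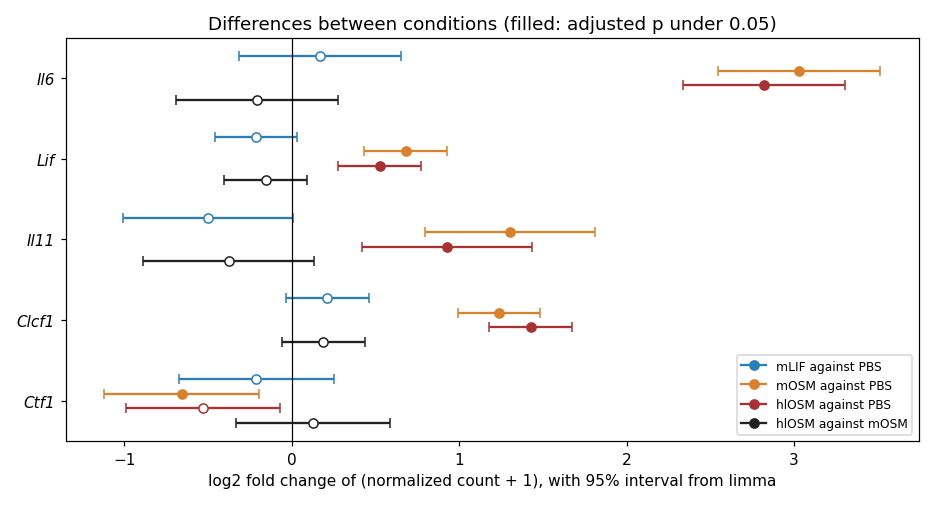
Log2 fold changes of (normalized count + 1) for the 5 tested members in 4 comparisons, as points with 95% intervals from limma, where filled points had an adjusted p under 0.05. Intervals of mOSM and hlOSM against PBS lie to the right of 0 for Il6, Lif, Il11 and Clcf1, and all 5 intervals of hlOSM against mOSM and of mLIF against PBS include 0.

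The comparison of hlOSM with mOSM asks whether engaging LIFR beside OSMR changed these transcripts further. The difference was −0.21 for Il6 (interval −0.69 to 0.27), −0.16 for Lif (−0.40 to 0.09), −0.38 for Il11 (−0.88 to 0.13), 0.19 for Clcf1 (−0.06 to 0.44) and 0.13 for Ctf1 (−0.33 to 0.59). By limma 0 members passed the test and 0 had an unadjusted p under 0.05, in a comparison that called 0.106% of all genes. The intervals leave room for differences of up to 0.69 for Il6 and 0.88 for Il11 below mOSM. Whether the step from mOSM to hlOSM differed from the step from PBS to mLIF was tested as an interaction, which was −0.38 for Il6, 0.06 for Lif, 0.12 for Il11, −0.02 for Clcf1 and 0.34 for Ctf1. Of these, limma called 0 (adjusted p from 0.695 to 0.970), 0 had an unadjusted p under 0.05, and 0.167% of all genes were called.

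Levels of different members can be set side by side only per length, as normalized counts per kb of annotated exon. With PBS the order was Lif (18.2 ± 2.79, SD, n = 3), Clcf1 (12.4 ± 0.995), Ctf1 (10.4 ± 0.950), Il11 (5.61 ± 1.94), Il6 (4.67 ± 1.45) and Osm (0). The libraries of Clcf1 and Ctf1 overlapped there, and so did those of Il11 and Il6. With mLIF the order was Lif (15.6 ± 1.35), Clcf1 (14.5 ± 0.947), Ctf1 (8.95 ± 1.14), Il6 (5.22 ± 1.19), Il11 (3.68 ± 0.277) and Osm (0.293 ± 0.254), and of these neighbours Lif and Clcf1 overlapped.

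With mOSM, Il6 stood first (40.5 ± 7.99), before Clcf1 (29.7 ± 2.09), Lif (29.0 ± 1.48), Il11 (14.3 ± 3.20), Ctf1 (6.40 ± 0.317) and Osm (0). The libraries of Clcf1 and Lif overlapped, and the lowest Il6 library (31.3 per kb) lay at the highest of Clcf1 (31.3). With hlOSM the means were 35.7 ± 10.9 for Il6, 34.2 ± 5.94 for Clcf1, 26.2 ± 3.70 for Lif, 10.7 ± 1.00 for Il11, 7.13 ± 1.45 for Ctf1 and 0.147 ± 0.254 for Osm, and the ranges of Il6, Clcf1 and Lif overlapped. Il6 was at the fifth place with PBS and at the first with mOSM, and with hlOSM it was not separated from Clcf1. Apart from Osm, the members had modest counts in the table. The shares that follow use the mean normalized count over all 12 libraries, with no correction for length. Of all genes, 62.61% had a lower mean normalized count than Il6, 70.65% than Lif, 69.03% than Clcf1, 50.96% than Il11 and 49.45% than Ctf1. Osm was at the floor, with 1.964% of all genes having a lower mean.

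**Figure D3:**
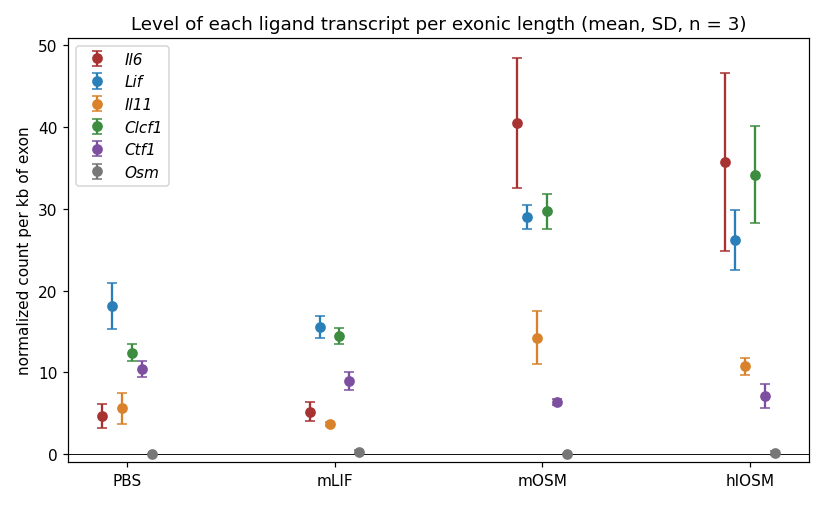
Normalized counts per kb of annotated exon (linear axis) for the 6 members in each condition, as the mean of 3 libraries with SD. Il6 lies near Il11 with PBS and mLIF and has the highest mean with mOSM (40.5) and hlOSM (35.7), where its SD overlaps that of Clcf1, and Ctf1 has its lowest mean with mOSM (6.40).

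The genes whose values ran most like each member were listed by Pearson's r of log2(normalized count + 1) over the 12 libraries, among tested genes with a mean of at least 50. For Il6 they were Prg4 (r = 0.99), Chst11 (0.99) and Pla2g4a (0.98), and for Clcf1 they were Ptgs2 (0.99), Nav1 (0.98) and Rnf217 (0.98). For Lif they were Rai14, Nid2 and Gm47140 (each 0.96), for Il11 Nid2 (0.97), Synpo (0.95) and Fam43a (0.94), and for Ctf1 Ramp1 (0.95), Rab30 (0.94) and Stard8 (0.93). The libraries fall into those with and those without an OSM protein, and these values mostly describe that split.

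Among the other ligand genes of the family, Cntf, the ciliary neurotrophic factor gene, had 2 to 5 normalized counts per library, and Ebi3, a subunit of IL-27, had 0 to 2. Ctf2, Il27 and Il31 were not analysed here.

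The receptors through which these ligands act were of unequal response. Osmr, the OSM receptor chain, rose by 0.60 with mLIF (adjusted p = 0.000576), by 0.96 with mOSM (adjusted p = 1.24e-07) and by 1.07 with hlOSM (adjusted p = 1.87e-08). Il6st, which encodes gp130, rose by 0.19 with mOSM (adjusted p = 0.0045) and by 0.18 with hlOSM (adjusted p = 0.00471), while Lifr did not pass, at −0.08, 0.02 and −0.01 against PBS for mLIF, mOSM and hlOSM. Il6ra, the private receptor of IL-6, had 23, 28 and 25 normalized counts with PBS and 15, 9 and 13 with hlOSM, and it fell by 1.00 on the log2 scale with hlOSM (adjusted p = 0.00331). With mOSM it fell by 0.73 (adjusted p = 0.0317), a call lost with the replicate block (adjusted p = 0.0683). Il11ra1, the private receptor of IL-11, did not pass, at −0.38 with mLIF (interval −0.65 to −0.11, adjusted p = 0.0668, all libraries below PBS), −0.11 with mOSM and −0.09 with hlOSM. Of 8 receptors, 5 were tested, and Cntfr, Il31ra and Il27ra had too few counts. Of the 5, 2 were raised and 1 lowered with either OSM protein, and 1 was raised with mLIF. Of all tested genes, 15.4% were raised and 15.8% lowered with mOSM, 18.2% and 19.8% with hlOSM, and 5.47% were raised with mLIF. The lowered share of the receptors was thus near that of all genes.

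Among 7 Janus kinases and STATs, Stat3, the main transducer of gp130, rose by 0.35 with mOSM (adjusted p = 3.75e-05) and by 0.35 with hlOSM (adjusted p = 2.23e-05). With mLIF it rose by 0.19 (adjusted p = 0.028), a call lost with the block (adjusted p = 0.0528). Jak2 rose by 0.49 and 0.46 and Stat5a by 0.60 and 0.75 with mOSM and hlOSM, and Stat5b fell by 0.24 with mOSM. Raised were 1 of the 7 with mLIF and 3 with either OSM protein, and 1 was lowered with mOSM. That lowered share was near the 15.8% of all tested genes that mOSM lowered. The raised part of all tested genes was 18.2% for hlOSM, 15.4% for mOSM and 5.47% for mLIF.

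Of 15 feedback genes and targets of gp130 signaling, 10 were tested. Of these, mLIF raised 5, mOSM 7 and hlOSM 6, and hlOSM lowered 2, beside 5.47%, 15.4% and 18.2% of all tested genes raised and 19.8% lowered with hlOSM. The counts of raised genes include Lcn2, which passed the filter only through the cytokine libraries (3, 5 and 1 normalized counts with PBS). Socs3, the feedback inhibitor that binds gp130, had 199, 209 and 168 normalized counts with PBS and 369, 363 and 425 with mLIF. It rose by 1.00 with mLIF (adjusted p = 1.02e-07), by 2.08 with mOSM (adjusted p = 2.06e-14) and by 2.17 with hlOSM (adjusted p = 8.8e-15). Timp1, an inhibitor of matrix proteases, rose by 0.73, 1.57 and 1.56, and Cebpd, a C/EBP factor of the acute phase, by 0.86, 1.44 and 1.41 in the same order. Cish and Pim1 were the 2 lowered with hlOSM, by 0.27 and 0.33, and this lowered share was near that of all genes. The fibrinogen genes Fga, Fgb and Fgg and the haptoglobin gene Hp were at 0 in every PBS and mLIF library and reached at most 6 normalized counts elsewhere (Fgb, hlOSM replicate 2).

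Among 11 AP-1 and NF-kB genes, whose products are known to act on cytokine promoters, 0 passed with mLIF. With mOSM 4 were raised and 2 lowered, beside 15.4% and 15.8% of all tested genes, so that the lowered share was near that of all genes. With hlOSM 4 were raised and 4 lowered, beside 18.2% and 19.8%. Fosl1, an AP-1 subunit, rose by 0.57 with mOSM (adjusted p = 0.00133) and by 0.53 with hlOSM (adjusted p = 0.00206), and Fosl2 by 0.28 and 0.21. Jun, another AP-1 subunit, fell by 0.31 and 0.41, and Nfkb2, an NF-kB subunit, by 0.24 and 0.35. Jund rose by 0.22 and 0.26, and Nfkbiz, a nuclear cofactor of NF-kB known from Il6 induction in macrophages, by 0.27 and 0.30. The calls of Jund and Nfkbiz with mOSM (adjusted p = 0.0672 and 0.0792) and of Relb with hlOSM (adjusted p = 0.0753) were lost with the block.

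Transcripts of 8 proteins known to set the life of cytokine mRNAs were also read. Of these, 1 was raised by mLIF and 4 by either OSM protein, and 1 was lowered by mOSM, beside 5.47% of all tested genes raised by mLIF, 15.4% raised and 15.8% lowered by mOSM and 18.2% raised by hlOSM. Rc3h2, Elavl1 and Zfp36l2 did not pass in any comparison with PBS. Zfp36, which encodes tristetraprolin, rose by 0.57 with mLIF (adjusted p = 0.00713), by 0.95 with mOSM (adjusted p = 6.02e-06) and by 0.93 with hlOSM (adjusted p = 6.1e-06). Zc3h12a, which encodes regnase-1, an endonuclease of Il6 mRNA, rose by 0.69 with mOSM (adjusted p = 0.00102) and by 0.79 with hlOSM (adjusted p = 0.000196) and was at −0.01 with mLIF. Arid5a, which stabilizes Il6 mRNA rather than removing it, rose by 0.42 with mOSM (adjusted p = 3.2e-05) and by 0.30 with hlOSM (adjusted p = 0.00112). Zfp36l1 rose by 0.33 and 0.27, the latter lost with the block (adjusted p = 0.0569), and Rc3h1 fell by 0.16 with mOSM, also lost with it (adjusted p = 0.0696). Between hlOSM and mOSM, 0 genes of the receptor, kinase, target, AP-1 and NF-kB or mRNA stability lists passed the test.

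**Figure D4:**
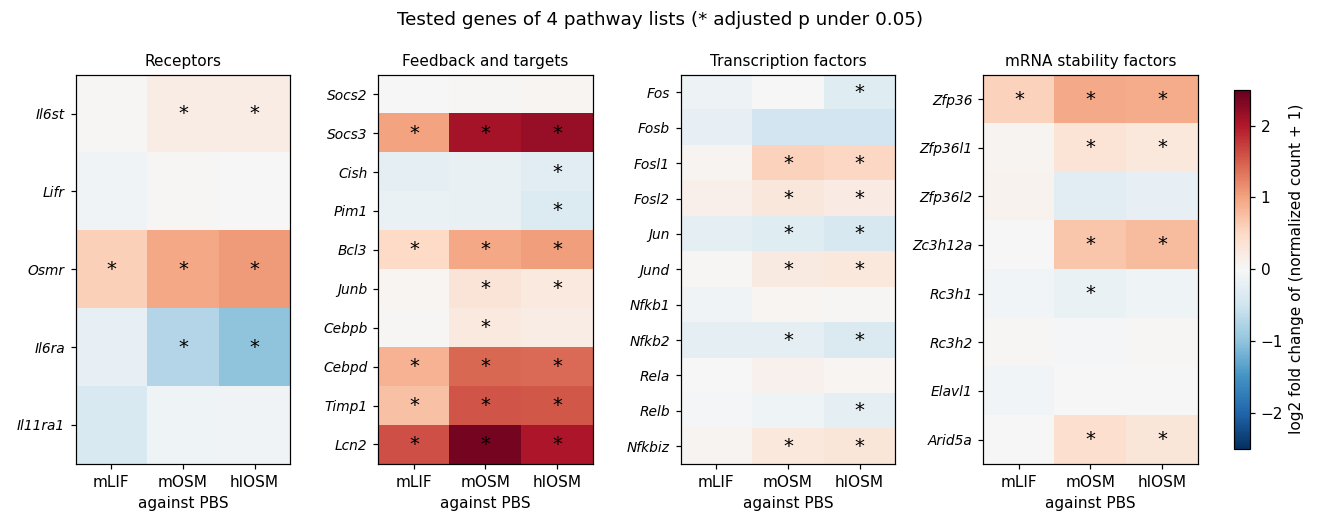
Log2 fold changes of (normalized count + 1) against PBS for the tested genes of 4 lists, as colour from blue (lower) to red (higher), with an asterisk for an adjusted p under 0.05. Socs3 and Osmr carry an asterisk in all 3 columns, Lifr in none, and Zc3h12a and Arid5a in those of mOSM and hlOSM.

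Other cells of the heart can also make these ligands, so markers of 5 cell types were summed in each library. The summed normalized counts of 8 cardiomyocyte markers were 48201 to 50117 in the PBS libraries, 41849 to 43641 after mLIF, 33853 to 37907 after mOSM and 34690 to 37137 after hlOSM, and 6, 7 and 7 of the 8 were lowered in that order of cytokines. Of 7 fibroblast markers, summing to 2251 to 2483 with PBS, 2435 to 2861 with mOSM and 2280 to 2514 with hlOSM, 2 were raised and 2 lowered with mOSM and 3 raised and 4 lowered with hlOSM. Of 6 endothelial markers, summing to 1042 to 1098 with PBS, 1286 to 1430 with mOSM and 1297 to 1405 with hlOSM, 4 were raised with mOSM and 5 with hlOSM. Of 7 leukocyte markers, summing to 304 to 328 with PBS, 348 to 385 with mOSM and 322 to 392 with hlOSM, 6 were tested. With each OSM protein 1 was raised and 1 lowered. The higher sums came from Cd68, with means of 53.7, 125 and 132 normalized counts with PBS, mOSM and hlOSM. Lyz2 (176, 156 and 146), Ptprc and Itgam had lower means with both OSM proteins, and Adgre1, Csf1r and Cd14 differed little. Of 6 smooth muscle and pericyte markers, summing to 508 to 673 with PBS, 269 to 332 with mOSM and 287 to 292 with hlOSM, 4 were lowered with each. With mLIF, where no member passed, 1 fibroblast and 1 endothelial marker were lowered and 1 leukocyte marker was raised. Of all tested genes, hlOSM raised 18.2% and lowered 19.8%. The shares for mOSM were 15.4% and 15.8%, and those for mLIF were 5.47% and 4.44%. The leukocyte calls with each OSM protein, 1 raised and 1 lowered of 6, were thus near the shares of all genes. No marker list was tested against these shares. With the replicate block, calls were lost for Ryr2 and Pln with mLIF (4 of 8 cardiomyocyte markers left), Col1a2 with mLIF, Lum and Tek with hlOSM and Itgam with mOSM. No marker was at 0 in all libraries, and the part of other cell types in the ligand differences was not tested.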

How the data were processed

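RNA of 12 libraries of primary mouse cardiomyocytes, 3 per condition, was prepared with a stranded total RNA kit. Per the study's methods and the processing notes, reads were trimmed, mapped to mm10 with STAR 2.7.7a and counted by the authors with featureCounts 1.6.5 where they belonged to a single gene. The deposited values are scores on the scale of read counts, normalized between libraries by the authors and rounded to whole numbers. The normalization is not named in the sources used here, the methods give only an average read number, so that the depth of each library is unknown, and library sums of 2745748 to 2911891 are not read numbers, so no counting interval was given and no count model was used. The sample titles gave the condition and number of each library.

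The 4 conditions were fitted together with limma 3.58.1 in R 4.3.3 (eBayes with a trend) on log2(normalized count + 1), a scale that understates changes of low genes, for the 13184 genes that reached 10 in 3 or more libraries. A gene passed at a Benjamini-Hochberg adjusted p under 0.05 (two-sided, over all genes tested), and the fit was tested on simulated data. Exact permutation tests, promoter windows and pentamer counts were computed in Python 3.11.15. Named genes are the 6 members, the lists given in the text and the 3 genes most like each tested member. A gene of the lists is not reported here. Members and lists were chosen with earlier results of these data known. The alternatives were pseudocounts of 0.1 and 5, no filter, a filter at 50, TMM and quantile rescaling, a robust fit, a replicate block, only the 6 libraries compared, and each library left out.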

Additional observations from a re-analysis of the deposited data

How the results depend on the processing

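The higher Il6, Lif, Il11 and Clcf1 values with mOSM and hlOSM, each against PBS and against mLIF, were past the threshold in 332 of 332 alternative fits (highest adjusted p = 0.037), and no called difference changed direction. With the filter at 50, which admits 3 members, 3 passed with mOSM against PBS in place of 5. Il6 reached 50 only in the mOSM and hlOSM libraries, as its PBS and mLIF values were 8 to 16. Its fits with this filter, which are also counted among the 332, are therefore no separate support. The 332 also include fits of Il11, which the filter at 10 admitted through the libraries in which it was high. All of these fits reuse the same 12 libraries, so they are not independent of one another. With each library left out in turn, 4 to 5 members passed with mOSM against PBS and 4 to 5 with hlOSM against PBS, 4 in both comparisons with mLIF, and 0 in the others. Ctf1 with mOSM lost its call without the filter (adjusted p = 0.0561), with the replicate block (0.087) and without PBS replicate 1 or 3 or mOSM replicate 1 or 2 (0.0504 to 0.10). In the robust fit Ctf1 gained a call with hlOSM against PBS (−0.60, adjusted p = 0.00204), mOSM against mLIF (adjusted p = 0.0165) and hlOSM against mLIF (adjusted p = 0.0308). The cause of these changes was not tested. With the replicate number as a block, 4 members passed with mOSM against PBS, 4 in each of the comparisons of hlOSM with PBS and of both OSM proteins with mLIF, and 0 in the others, and apart from Ctf1 and the list genes named in the text no call on a member changed. Deviations of same-numbered libraries correlated between −0.41 and −0.15 in all 18 pairs, which shows no positive pairing but is not what unrelated numbers give, and whether a replicate effect was taken out of the deposited values was not tested. With arrangements kept within replicate numbers, the exact permutation p was 0.00347 for Il6, 0.0122 for Lif, 0.00694 for Il11, 0.00868 for Clcf1 and 0.0382 for Ctf1. Most limited by depth are Ctf1, with 11 to 21 normalized counts, and Il11, with 7 to 37. The PBS and mLIF values of Il6, 8 to 16, are limited in the same way. The depth of single libraries is unknown. Without the filter, the differences of Osm were 0.67, 0 and 0.33 for mLIF, mOSM and hlOSM against PBS and none passed.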
